A study of Macaca mulatta with 6 samples.

Results

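The small RNA repertoire described here is that of the testis of juvenile rhesus monkeys (Macaca mulatta) given no hormone, in the 3 vehicle libraries of a set of 6. The libraries were chosen by their labels alone, and the remaining 3 libraries, from animals infused with gonadotropin (FSH and LH), enter no value below. All 3 animals were wild type and received a pulsatile infusion of vehicle for 48 h, so they were handled and infused rather than untouched. Animal 7 was 24 months old, animal 9 was 14 months old and animal 11 was 15 months old. The libraries are named vehicle 7, vehicle 9 and vehicle 11 after the animals. RNA came from the whole right testis, which was cut into pieces, so each library mixes Sertoli cells, spermatogonia, peritubular and interstitial cells, vessels and blood. In such a mixture fewer cells of a type and less RNA per cell cannot be told apart. Age and animal cannot be told apart either, since each age is a single monkey.

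A microRNA (miRNA) is cut from a hairpin transcript by Drosha and then Dicer, which leaves a short duplex of a 5p and a 3p strand. Argonaute keeps mostly 1 strand of the duplex and uses its seed, near the 5′ end, to find target messenger RNAs. Small nucleolar RNAs (snoRNAs) guide chemical changes of ribosomal RNA: those of the C/D box class guide methylation and those of the H/ACA box class guide pseudouridylation. The juvenile primate testis holds dividing Sertoli cells and early spermatogonia, and germ cells have not yet entered meiosis.

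The mature miRNA table held 1494673 counts in vehicle 7, 1403498 in vehicle 9 and 1342237 in vehicle 11, over 701 names. The small RNA gene table held 2930969, 2716628 and 2447997 counts over 3083 genes. Levels are CPM, or counts per 1000000 of the library's total in the table named, and shares are percentages of that total. A count of 0 allows up to 3 counts, which is 2.01 to 2.24 CPM in the miRNA table and 1.02 to 1.23 CPM in the small RNA table. Of the 701 names, 528 had counts in all 3 libraries, 136 in 1 or 2 of them and 37 in none. With 1 group there is no comparison between conditions, and no test was run. Errors are the SD over the 3 animals (n = 3), and counting intervals cover counting error only, since reads are not independent molecules.

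The miRNA pool of the juvenile testis, counted over the 701 names of the miRNA table, was concentrated in few names. Ranks and shares given here cover those names only. The miRNA gene with most counts in the small RNA table has no name. Whether its reads are counted in the miRNA table was not tested. The 5 most abundant miRNAs, miR-125b-5p, miR-424-5p, miR-26a-5p, let-7a-5p and let-7f-5p, held 31.6% ± 1.13 of all miRNA counts. The 20 most abundant held 62.6% ± 1.33, with 61.1% in vehicle 7, 63.7% in vehicle 9 and 62.9% in vehicle 11. The 50 most abundant held 86.0% ± 0.562 and the 100 most abundant 96.0% ± 0.122. Counted by each library's own ranking, 12 miRNAs made up 50% of the counts in each of the 3 libraries. To reach 90% took 60, 58 and 61 miRNAs in vehicle 7, 9 and 11, and to reach 99% took 188, 192 and 198. The concentration therefore varied little between animals. Which miRNA led varied more: 15 names were among the 20 most abundant of all 3 libraries, and 25 names were among the 20 of at least 1 library.

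miR-125b-5p, a miRNA that restrains differentiation and apoptosis in several stem and progenitor cells, had the highest mean. Its level was 32283 CPM in vehicle 7, 133149 in vehicle 9 and 89525 in vehicle 11, and it ranked 8, 1 and 1. miR-424-5p, a member of the miR-15 and miR-16 family, which targets cyclins and other cell cycle genes, came next by mean. It stood at 103076 CPM in vehicle 7, 34344 in vehicle 9 and 83603 in vehicle 11, with ranks of 1, 7 and 2. Vehicle 7 was thus the lowest of the 3 for miR-125b-5p and the highest for miR-424-5p, and vehicle 11 lay between the other libraries for both.

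miR-26a-5p, which represses the Polycomb gene EZH2, followed with 46848 CPM in vehicle 7, 82093 in vehicle 9 and 70416 in vehicle 11. let-7a-5p had 62198, 40205 and 44819 CPM in the same order, and let-7f-5p had 59669, 29057 and 37860 CPM. let-7 miRNAs oppose LIN28 and mark the passage from the pluripotent to the differentiated state. Both let-7 names were highest in vehicle 7 and lowest in vehicle 9.

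miR-10b-5p, which is encoded within a HOX gene cluster, was among the steadiest of the abundant miRNAs. It measured 33363 CPM in vehicle 7, 35698 in vehicle 9 and 35584 in vehicle 11, and it ranked 7, 5 and 6. miR-99a-5p, with 24672, 21973 and 24128 CPM, was about as even. miR-21-5p had 15666, 18088 and 17208 CPM. miR-513a, from an X-linked cluster of testis miRNAs, had 21504, 18814 and 24809 CPM, so that it ranked 12, 11 and 9.

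The rest of the 20 most abundant names split by which library was highest. miR-19b (40349, 17170 and 28095 CPM in vehicle 7, 9 and 11), a member of the growth-promoting miR-17 to miR-92 group, was highest in vehicle 7. miR-101-3p (36510, 15497 and 20622 CPM), another repressor of EZH2, was too, and so were let-7g-5p (23801, 16923 and 15130 CPM) and miR-195-5p (21516, 11322 and 14045 CPM). By contrast, miR-125a-5p (12080, 38026 and 26626 CPM) and miR-145-5p (12288, 34829 and 21918 CPM), the latter a smooth muscle miRNA, were highest in vehicle 9. miR-199a-3p, miR-16-5p, miR-191-5p, miR-23a-3p and miR-199a were also highest in vehicle 9, with mean levels from 12722 to 22664 CPM. The name miR-199a has the same counts as miR-199a-5p in every library, so that strand is listed under both names.

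**Figure D1:**
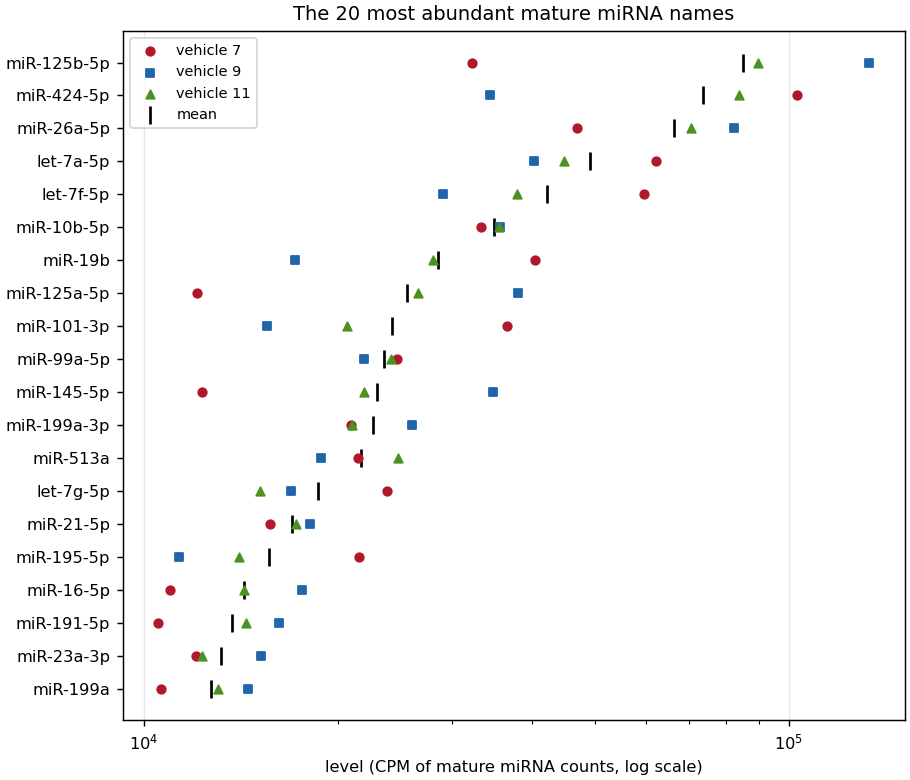
Level of the 20 mature miRNA names with the highest mean, in CPM of mature miRNA counts on a log axis. Each symbol is 1 vehicle library and the bar is the mean of the 3. miR-125b-5p spans 32283 to 133149 CPM, whereas miR-10b-5p spans 33363 to 35698 CPM.

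Grouped by family, the miR-10, miR-99, miR-100 and miR-125 families were the largest, at 177937 ± 64951 CPM or 17.8% of all miRNA counts. The sum was 110025 CPM in vehicle 7, 239455 in vehicle 9 and 184331 in vehicle 11, and most of that range lies in miR-125b-5p and miR-125a-5p. All 15 names of this list had counts in all 3 libraries, against 75.3% of all names. Their median level was 413 CPM, against 16.7 CPM over all 701 names. After the 4 most abundant names came miR-100-5p at 5371 ± 1004 CPM and miR-99b-5p at 2081 ± 416 CPM.

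The let-7 family held 138076 ± 29580 CPM, or 13.8%, with 172032 CPM in vehicle 7, 117895 in vehicle 9 and 124301 in vehicle 11. Its members differed in how they were spread over the animals. let-7i-5p, at 2423, 5076 and 3280 CPM in vehicle 7, 9 and 11, was lowest in vehicle 7, where let-7a-5p and let-7f-5p were highest. let-7c-5p had 7573 ± 832 CPM, let-7d 5317 ± 535, let-7e-5p 5025 ± 742 and let-7b-5p 4930 ± 706. miR-98, the X-linked member, had 1028 ± 154 CPM.

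The miR-15 and miR-16 family summed to 113146 ± 37325 CPM, or 11.3%, and was lowest in vehicle 9 (72366 CPM) and highest in vehicle 7 (145613 CPM). miR-424-5p made up most of it, ahead of miR-195-5p and of miR-16-5p, at 10973, 17558 and 14293 CPM. miR-15a-5p was even across animals, with 2200, 2056 and 2056 CPM. miR-503-5p, which shares the X-linked cluster of miR-424, had 2323 ± 371 CPM. The miR-26 family held 72085 ± 17240 CPM, or 7.21%, nearly all of it miR-26a-5p, and miR-26b-5p had 5556 ± 992 CPM.

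The miR-17 to miR-92 group and its paralogs, which promote proliferation, held 49614 ± 23077 CPM, or 4.96%. Vehicle 7 had 74444 CPM, vehicle 9 28824 and vehicle 11 45572. miR-20a-5p went from 2901 CPM in vehicle 9 to 14935 in vehicle 7, and miR-19a-3p from 2912 to 8374 CPM. Other members of the group were lower, miR-17-5p at 1204 ± 384 CPM and miR-92a-3p at 701 ± 246 CPM. The miR-29 family, which represses collagens and DNA methyltransferases, had the widest ratio of the families above 1% of the counts. It had 40325 CPM in vehicle 7, 11029 in vehicle 9 and 15951 in vehicle 11, a ratio of 3.66 between the highest and the lowest library. miR-29a-3p (14124, 7719 and 6945 CPM) varied less than miR-29b-3p (14403, 1412 and 3999 CPM) and miR-29c-3p (11599, 1642 and 4773 CPM).

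The miR-30 family held 35512 ± 3935 CPM, or 3.55%, led by miR-30c-5p (10584 ± 1492 CPM) and miR-30b-5p (10428 ± 906 CPM). The miR-23, miR-27 and miR-24 group held 38364 ± 5845 CPM, led by miR-23a-3p and miR-24-3p. miR-21-5p accounted for 16987 ± 1226 CPM. Of smaller families, miR-146 reached 4422 ± 1014 CPM, nearly all miR-146b-5p (4330 ± 995 CPM), and miR-181 reached 4054 ± 849 CPM. The miR-450 and miR-542 pair had 1783 ± 308 CPM, miR-22 had 674 ± 198 CPM, miR-221 and miR-222 had 514 ± 147 CPM, and miR-132 and miR-212 had 230 ± 42.2 CPM. The miR-183, miR-96 and miR-182 group had 39.4 ± 9.94 CPM and the H19 and IGF2 list, miR-675 alone, had 82.5 ± 24.3 CPM.

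The labelled tissue was checked against miRNAs known from the testis. The X-linked group from miR-506 to miR-514 together with miR-888 to miR-892, which evolves fast and is richest in mammalian testis, held 63082 ± 10627 CPM, or 6.31% of all counts. The sums were 53303 CPM in vehicle 7, 61553 in vehicle 9 and 74391 in vehicle 11. Of its 22 names 14 had a mean of at least 100 CPM, or 63.6%, against 32.0% of all 701 names. miR-513a led, followed by miR-513b (8263, 11002 and 10515 CPM) and miR-514b-5p (7339, 7520 and 8835 CPM). miR-514a-3p had 3858, 6291 and 9030 CPM, and miR-510-5p had 3495, 6279 and 6054 CPM. miR-507 had 3029 ± 932 CPM, miR-506-3p 2705 ± 1000 and miR-508-3p 1916 ± 919. The neighbouring miR-891a was far lower, at 22.1, 6.41 and 8.94 CPM. miR-202, a gonad miRNA on the fixed lists, has no name in the miRNA table and was not analysed here. Its level is thus not known. Whether an unnamed miRNA gene of the small RNA table is miR-202 was not tested.

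miRNAs of meiotic and later germ cells had few counts. The list of miR-34b, miR-34c and miR-449, which rise when spermatocytes form, summed to 53.5 CPM in vehicle 7, 13.5 in vehicle 9 and 67.1 in vehicle 11. None of its 7 names had at least 10 counts in all 3 libraries, against 391 of all 701 names. miR-34c-5p led with 30.1, 6.41 and 36.5 CPM, and miR-449a-5p had 20.7, 4.99 and 23.1 CPM. The list of pluripotent and early germ cells (miR-302, miR-367 and miR-371 to miR-373) summed to 538 ± 157 CPM. miR-372-3p, known from primordial germ cells and germ cell tumours, made up most of it with 397, 198 and 419 CPM, and miR-373 had 134, 67.0 and 128 CPM. The miR-302 names were each below 30 CPM in every library. Vehicle 9 was lowest for both germ cell lists.

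Markers of other cells were present at unequal levels. The mesenchymal miR-199 and miR-214 list held 55578 ± 9531 CPM, in which the doubly listed strand of miR-199a counts 2 times. The smooth muscle list, miR-143 and miR-145, held 19711 CPM in vehicle 7, 47671 in vehicle 9 and 31991 in vehicle 11. The endothelial miR-126 stood at 4729, 8668 and 5363 CPM. The red blood cell list had 3502, 4895 and 9014 CPM, nearly all of it miR-451 (3314, 4822 and 8794 CPM). All 4 of its names had counts in every library, though miR-486-3p had only 2, 1 and 1. The white blood cell list had 836, 1455 and 1722 CPM, led by miR-223 with 458, 862 and 907 CPM. Of its 6 names 5 had counts in every library, or 83.3%, near the 75.3% of all 701 names.

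The epithelial, striated muscle, neural and liver lists were low, but the thyroid list was not. Epithelial miR-200 and its relatives summed to 144 ± 52.5 CPM, striated muscle to 109 ± 13.9, neural cells to 212 ± 67.4 and the liver miRNA miR-122 to 0.932 ± 0.352 CPM, with 1 or 2 counts per library. A list of miR-204, miR-224, miR-383 and miR-1247, drawn up for thyroid, held 12030 ± 4115 CPM. Of that list miR-204-5p, which many epithelia express, had 16608, 8979 and 9968 CPM, and each other member had a mean under 100 CPM. The smooth muscle and endothelial sums were thus highest in vehicle 9 and both blood sums in vehicle 11. Single blood markers did not all follow: miR-150-5p, at 184, 326 and 310 CPM, and miR-486-5p, at 8.03, 43.5 and 28.3 CPM, were highest in vehicle 9, and miR-155, at 22.1, 10.7 and 11.2 CPM, in vehicle 7. Their part in the differences between the libraries was not tested.

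The DLK1-DIO3 domain, an imprinted locus whose many miRNAs are made from the maternal chromosome, was represented by 83 names. Of these, 69 had counts in all 3 libraries, or 83.1%, against 75.3% of all 701 names. A mean of at least 100 CPM was reached by 32, or 38.6%, against 32.0% of all names, so both shares were near those over all names. Their median level was 44.5 CPM. The sum was 26566 CPM in vehicle 7, 21923 in vehicle 9 and 25007 in vehicle 11, a CV of 9.65%. miR-376c-3p led with 11374, 6498 and 8024 CPM, before miR-376a-3p (3649, 2531 and 4080 CPM) and miR-299-5p (2220, 2569 and 3029 CPM). miR-136 ranged from 499 to 1947 CPM, whereas miR-411-5p ranged from 1215 to 1293 CPM. The primate-specific C19MC cluster, best known from placenta, was lower, at 1819 ± 480 CPM, although 33 of its 37 names had counts in all 3 libraries. miR-517c (488, 425 and 516 CPM) and miR-519a-3p (282, 249 and 560 CPM) led it.

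**Figure D2:**
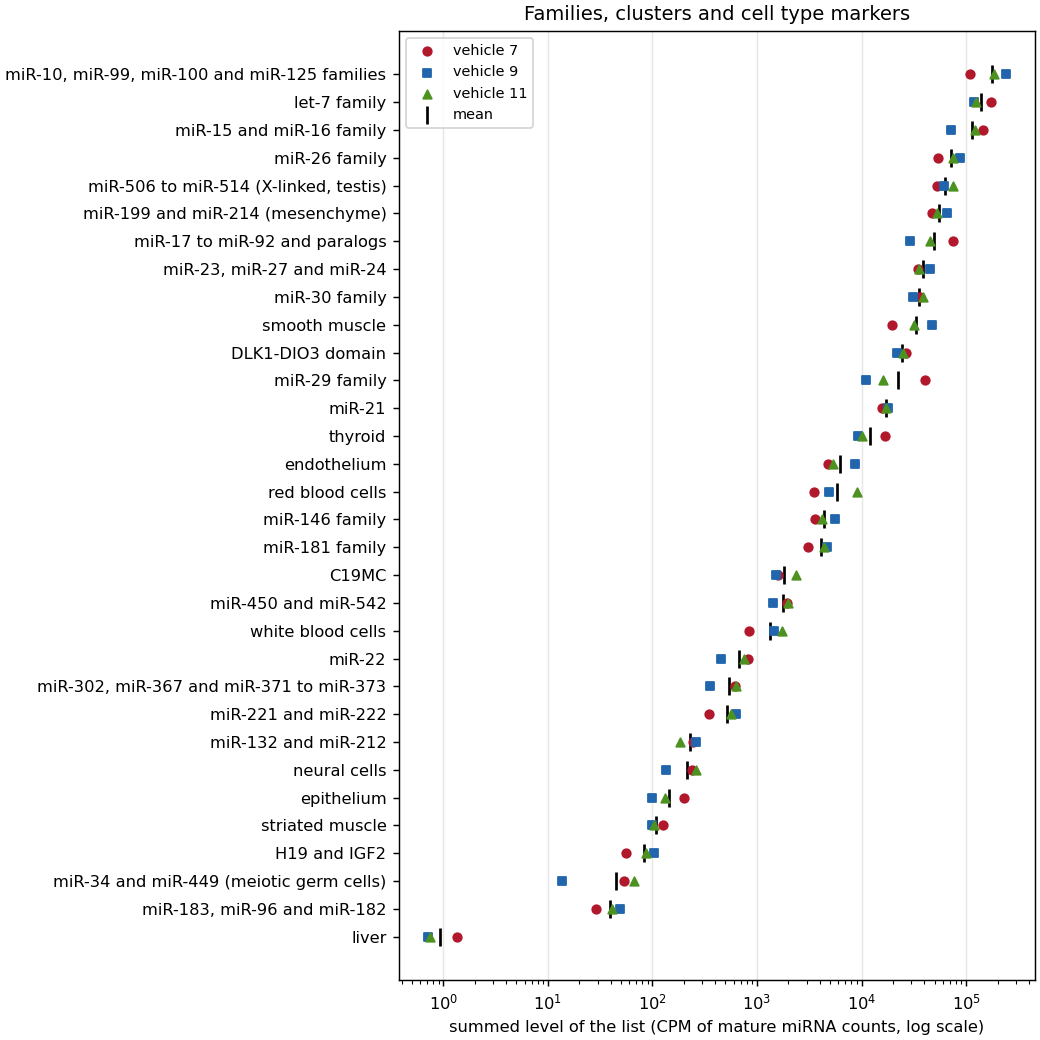
Summed level of each list of miRNA families, clusters and cell type markers, in CPM of mature miRNA counts on a log axis. Each symbol is 1 vehicle library and the bar is the mean of the 3. The lists run from 177937 CPM for the miR-10, miR-99, miR-100 and miR-125 families down to 0.932 CPM for the liver list, and the miR-29 family spreads from 11029 to 40325 CPM.

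Strand choice was strongly biased in most hairpins. Names ending in 5p held 69.2% ± 2.27 of the miRNA counts, names ending in 3p held 20.5% ± 1.86, and 124 names without an arm held 10.4% ± 0.980. Both arms are named for 242 hairpins, and 165 of these had at least 30 counts over both arms in every library. A hairpin here is a pair of arm names, which can come from several positions. The abundant miR-125b and miR-26a are not among them, since their 3p names carry a copy number. The 5p arm had more counts in all 3 libraries for 91 hairpins, the 3p arm for 65, and the leading arm differed between libraries for 9. An arm dominated where it held at least 90% in every library: 5p did so in 63 hairpins and 3p in 41. In 14 hairpins the 5p share stayed between 25% and 75% in every library, which is termed balanced here, and 47 fell in none of these classes.

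In most of the analysed hairpins with the highest counts, other than miR-199a, the 5p arm held nearly everything. miR-424 had 99.2%, 98.1% and 99.2% of its counts on the 5p arm in vehicle 7, 9 and 11. let-7a (99.5% ± 0.183), let-7f (99.7% ± 0.0210), miR-10b (99.5% ± 0.0876) and miR-125a (99.9% ± 0.0147) were alike, and so was miR-99a at 97.5% ± 0.373. The 3p arm dominated miR-23a, where the 5p share was 0.00745%, as well as miR-24 (0.263%), miR-143 (0.533%), miR-29a (1.18%) and miR-103 (0.0664%). Of the miR-17 to miR-92 group, miR-17 was balanced, at 61.6% ± 2.11 on 5p. The most abundant balanced pair of arm names was miR-199a, with 33.7%, 35.8% and 38.2% of 35386 CPM on the 5p arm. Both names were abundant, but they have positions on chromosomes 1 and 19, so the share is not that of a single hairpin. The gene MIR199B had 39987, 45124 and 36997 counts in the small RNA table. Whether its reads are also counted under miR-199a was not tested. miR-190a (60.1% ± 4.66), miR-409 (51.8% ± 8.24) and miR-369 (49.6% ± 9.40) were balanced at lower levels. Hairpins of 1 X-linked family leaned opposite ways: miR-514b had 90.8%, 85.6% and 84.7% on the 5p arm, and miR-514a had 21.2%, 24.0% and 18.7%.

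For most hairpins the arm shares of the 3 animals lay close together, although a share near 0% or 100% leaves little room to vary. The median SD of the 5p share was 1.47 percentage points, and 133 of the 165 hairpins ranged over 10 points or less. Only 12 ranged over more than 20 points. The widest was miR-193a, with a 5p share of 20% in vehicle 7, 61.1% in vehicle 9 and 36.5% in vehicle 11. The 95% Wilson intervals, which cover counting error only, were 15.8 to 25.03%, 54.1 to 67.7% and 30.1 to 43.4%, and they did not overlap.

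miR-382 had a 5p share of 39.3%, 76.4% and 54.5% in vehicle 7, 9 and 11, and miR-127, also of the DLK1-DIO3 domain, had 60%, 26.0% and 45.4%. The 5p shares of these hairpins of 1 domain therefore moved in opposite directions. miR-361 had 76.0%, 39.98% and 56.6% on the 5p arm, at 891 CPM the most abundant hairpin whose leading arm differed. The others were miR-409, miR-369, miR-532, miR-331 and miR-512, at 59.7 to 370 CPM for both arms. Without vehicle 7, the count of hairpins whose leading arm differed fell from 9 to 4, though fewer libraries also leave less room to differ.

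**Figure D3:**
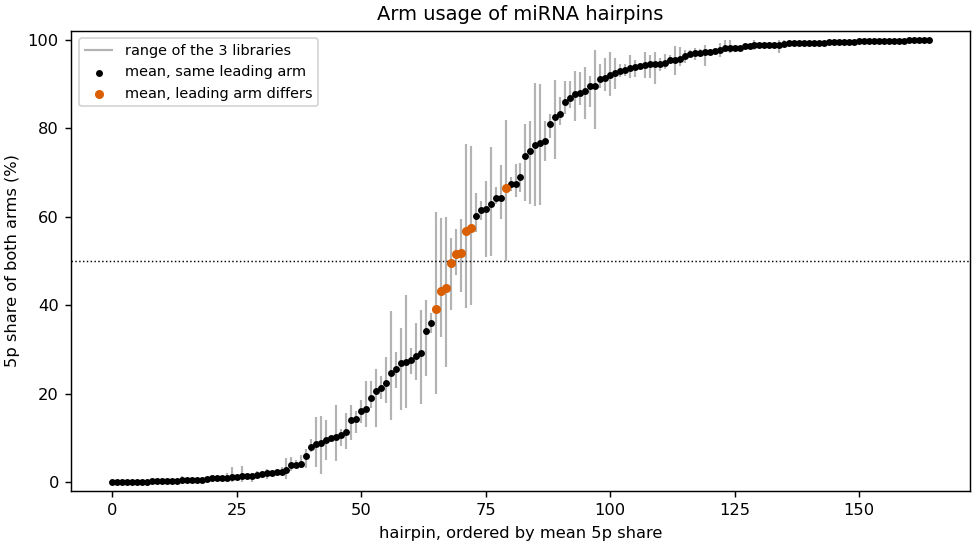
Share of the 5p arm in the counts of both arms, in percent, for 165 hairpins in order of their mean. Points are means of the 3 vehicle libraries, lines their range, and orange points the 9 hairpins whose leading arm differed; most hairpins lie near 0% or 100% with a short range.

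Positions of hairpins on rheMac2 were given by the authors' deposited test table. Names with a single position numbered 501 and held 58.2%, 52.5% and 55.6% of each library's counts. A further 60 names had several positions, and 140 had none. Of the counts with a single position, the X chromosome held 25.1%, 15.9% and 25.02%, from 48 of 340 hairpins, ahead of chromosome 3 (10.0% ± 0.877) and chromosome 19 (9.31% ± 3.25). Over all counts, names whose every position lay on X held 17.7%, 11.4% and 17.5%. miR-424-5p was the largest contributor to that share, and the X-linked miR-513 and miR-514 names followed it. miR-660-5p, from another X-linked cluster, added 4790 ± 1217 CPM.

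Chromosome 7, which carries the DLK1-DIO3 domain, held 52 hairpins but 4.25% ± 0.0506 of these counts. Chromosome 12 held 7.495% ± 0.546 from 4 hairpins, chiefly mir-10b at 39792044 to 39792153.

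Hairpins closer than 10 kb to each other formed 43 clusters, which held 167 of the 340 hairpins and 69.3%, 66.1% and 69.8% of the counts with a single position. The cluster with most counts lay on X from 132765568 to 132772100. It has 6 hairpins, and miR-424-5p supplied 94.1% of its 78265 ± 35333 CPM. Its lowest name, miR-450a-2-3p, had 15.2 CPM, but that is the arm with fewer counts. miR-450a-5p had 390 CPM and is not in the cluster's sum. Leading arms in the sum ran from 313 CPM for miR-450b-5p to 73674 CPM for miR-424-5p. The cluster of miR-143 and miR-145 on chromosome 6, from 145901872 to 145903618, had 19711, 47671 and 31991 CPM.

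On chromosome 19 from 57750860 to 57751589, the cluster of miR-99b, let-7e and miR-125a had 18270, 46564 and 33519 CPM. Its counterpart on chromosome 3 from 30362796 to 30363612, with let-7c and miR-99a, was even, at 33635, 30454 and 31334 CPM. miR-125a-5p (12080, 38026 and 26626 CPM) supplied most of the chromosome 19 sum. The chromosome 3 sum holds no miR-125 name, since miR-125b-5p (32283, 133149 and 89525 CPM) has positions on chromosomes 3 and 14. Both miR-125 names were highest in vehicle 9. The other leading arms varied less: let-7e-5p had 5025 ± 742 CPM, miR-99b-5p 2081 ± 416 and let-7c-5p 7573 ± 832. miR-99a-5p was even, as given above. The sums of these paralogous clusters thus do not compare like members. The largest cluster by number, 33 hairpins over 42.6 kb of chromosome 7, is part of the DLK1-DIO3 domain and had 18753 ± 1336 CPM. A cluster of 4 hairpins with miR-20a on an unplaced scaffold had 27083, 7838 and 12034 CPM. The cluster of miR-29a on chromosome 3 had 14223, 7853 and 7058 CPM and the cluster of miR-29c on chromosome 1 had 11699, 1763 and 4894 CPM.

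Across all classes of small RNA gene, miRNA genes dominated the small RNA table, at 96.9% of all counts for vehicle 7, 91.9% for vehicle 9 and 94.1% for vehicle 11. snoRNA genes came next, with 1.75%, 5.69% and 4.52%. Mitochondrial tRNA held 0.823%, 1.43% and 0.840%, snRNA 0.178%, 0.421% and 0.249%, and rRNA 0.199%, 0.190% and 0.157%. The class misc_RNA, which holds Y, vault and signal recognition particle RNA, held 0.0308%, 0.187% and 0.0492%. Mitochondrial rRNA held 0.0791% ± 0.0349, scaRNA 0.0607% ± 0.0164 and ribozymes 0.00927% ± 0.00557. The sRNA class had 1 to 4 counts per library. The widest 95% Wilson interval of these shares was within 0.0325 percentage points of its value, so counting error was far smaller than the spread between animals for the larger classes.

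Reads from near-identical copies were counted for each copy in this table. For example, mml-mir-125b-1 and mml-mir-125b-2 had 187937 and 188303 counts in vehicle 9. In all, 154 genes in 67 groups had counts within 5% of each other in every library, and 109 of them were miRNA genes. Counting each group 1 time, an alternative chosen after the data were seen, gave 91.6% ± 3.71 for miRNA and 5.997% ± 3.05 for snoRNA. The order of these leading classes was the same. Levels of genes with such copies are uncertain.

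**Figure D4:**
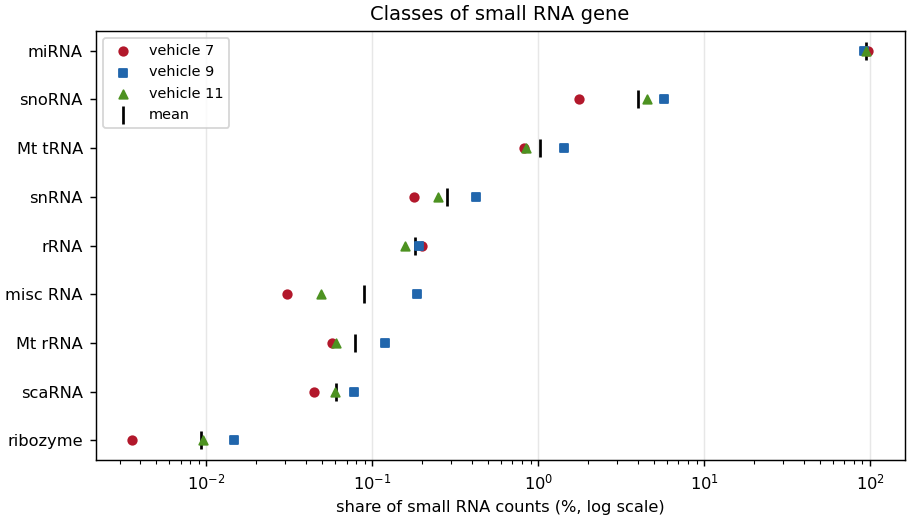
Share of small RNA counts by class of gene, in percent on a log axis, as the small RNA table names the classes. Each symbol is 1 vehicle library and the bar is the mean of the 3; miRNA genes hold 91.9 to 96.9% and snoRNA genes 1.75 to 5.69%, and vehicle 9 is highest in each class shown other than miRNA and rRNA.

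Among miRNA genes, the one with most counts has no name in the table or in the table of gene names used here. ENSMMUG00000048390 lies on chromosome 9 of rheMac8 from 129459983 to 129460082. It had 293384 counts in vehicle 7, 127940 in vehicle 9 and 66396 in vehicle 11, which is 10.0%, 4.71% and 2.71% of the small RNA table. It ranked 1, 3 and 10 in the 3 libraries. In vehicle 7 its count exceeded the 154065 of miR-424-5p, the highest name of the miRNA table there. Whether its reads are counted in the miRNA table was not tested, so shares of that table may lack them. Unnamed miRNA genes numbered 467, of which 55 had at least 10 counts in every library, and together they held 14.3% ± 3.40 of the miRNA class. Several lie close together on X between 140902083 and 140974547. The highest of these, ENSMMUG00000041749, had 11350, 10143 and 14099 CPM. It is 1 of 3 near-identical copies, so the share of unnamed genes can hold the same reads more than 1 time. Its counts of 33265, 27555 and 34514 were close to those of miR-513a, at 32142, 26406 and 33300. Whether these are the same reads was not tested. Named genes followed the mature table: mml-mir-125b-2 had 16852, 69315 and 49396 CPM and mml-mir-424 had 56570, 19082 and 48969 CPM.

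snoRNA of the C/D box class made up most of the second class. SNORD genes summed to 14283 CPM in vehicle 7, 47739 in vehicle 9 and 38330 in vehicle 11, whereas SNORA genes, of the H/ACA box class, summed to 476, 924 and 663 CPM. Of 276 SNORD genes, 62 had a mean of at least 100 CPM, and of 238 SNORA genes, 0 did. The range of RNA lengths kept for the libraries is not given in the sources used here, so SNORD and SNORA levels may not compare as molecules.

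The snoRNA gene with most counts was snoZ39, with 1010 CPM in vehicle 7, 5482 in vehicle 9 and 4109 in vehicle 11. SNORD2 on chromosome 2 had 2314, 2817 and 3668 CPM. SNORD69, at 552, 4076 and 3600 CPM, SNORD31, at 252, 3007 and 2476 CPM, and SNORD100, at 557, 2616 and 2560 CPM, were all lowest in vehicle 7. That held widely: of 158 SNORD genes with at least 10 counts in every library, 144 were lowest in vehicle 7 and 133 were highest in vehicle 9. Scaling by TMM, which sets the bulk of genes equal between libraries, moved vehicle 9 by -0.62 (log2) against vehicle 7 in this table. With it 114 of the 158 were lowest in vehicle 7 and 117 highest in vehicle 9, and the ratio of the SNORD sums between those libraries went from 3.34 to 2.18.

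Imprinted snoRNA clusters were measured as well. SNORD112 to SNORD114, which share the DLK1-DIO3 domain with the miRNAs above, had 939 CPM in vehicle 7, 5957 in vehicle 9 and 3801 in vehicle 11. The sum of the domain's miRNAs was more even over the same animals, at 26566, 21923 and 25007 CPM in the miRNA table. Single names went different ways within that sum. miR-376c-3p was highest in vehicle 7, but miR-495-3p (351, 1245 and 653 CPM) and miR-127-3p (28.1, 187 and 96.9 CPM) were lowest there. The snoRNA sum thus spanned a ratio of 6.35 between the highest and the lowest library and the miRNA sum, in the miRNA table, a ratio of 1.21. With TMM these ratios were 4.13 and 1.37. All SNORD genes together, also lowest in vehicle 7 and highest in vehicle 9, had a ratio of 3.34, or 2.18 with TMM. SNORD115 and SNORD116, of the Prader-Willi region, had 262, 699 and 338 CPM, and some of them are near-identical copies.

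Other structural RNAs were scarce in the libraries. Of the spliceosomal RNAs, U2 genes summed to 1171, 2902 and 1714 CPM and U5 genes to 408, 1109 and 599 CPM, while U1 genes had 25.8 ± 5.71 CPM, U4 genes 60.3 ± 19.7 and U6 genes 45.8 ± 3.80. U3, which acts in the processing of ribosomal RNA, went the other way from most snoRNAs, with 775 CPM in vehicle 7, 381 in vehicle 9 and 582 in vehicle 11. U8 had 381 ± 72.2 CPM and snoU13 had 183 ± 123 CPM. SCARNA15, of the Cajal body, made up 57.9% of its class, with 321, 365 and 368 CPM, and SCARNA2 and SCARNA6 were the next of that class. SCARNA2 on chromosome 1 had 14.7, 105 and 34.3 CPM.

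Ribosomal 5.8S RNA summed to 1964, 1867 and 1523 CPM, and a pair of near-identical copies each held about 45% of the rRNA class. 5S RNA had 36.4 ± 8.02 CPM over 288 genes.

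Signal recognition particle RNA, part of the machinery that targets proteins to the endoplasmic reticulum, stood out in vehicle 9. It had 125 CPM in vehicle 7, 1155 in vehicle 9 and 116 in vehicle 11. The leading pair of copies, annotated Metazoa_SRP on chromosome 7, each had 30, 1010 and 23 counts. Y RNA had 139, 573 and 298 CPM, and vault RNA had 18.8, 93.1 and 41.7 CPM. Without vehicle 9 the misc_RNA class held 0.0400% of the counts in place of 0.0890%. Of the ribozymes, RNase_MRP had 10.6, 118 and 53.5 CPM and RNaseP_nuc had 25.2, 29.4 and 41.3 CPM. 7SK RNA had 25.9 ± 11.4 CPM.

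All 22 mitochondrial tRNA genes had counts in every library, and the gene with most counts, ENSMMUG00000028675, made up 19.1% of their sum. It lies on the mitochondrial genome from 12198 to 12256 and had 1122, 3357 and 1426 CPM. ENSMMUG00000028704, from 536 to 607, went from 533 CPM in vehicle 7 to 2587 in vehicle 9. ENSMMUG00000028697, on the opposite strand from 4280 to 4351, was highest in vehicle 7 (1641 CPM) and lowest in vehicle 11 (1034 CPM). The tRNAs therefore did not follow 1 order of the libraries. Both mitochondrial rRNA genes were highest in vehicle 9, ENSMMUG00000028701 at 774 CPM and ENSMMUG00000028703 at 420 CPM. Under TMM scaling the mitochondrial sums were also highest in vehicle 9, but vehicle 7 and vehicle 11 changed places.

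The spread between animals was well above counting error. For 391 miRNA names with at least 10 counts in every library, the median coefficient of variation (CV) of the CPM was 31.4%, and counting alone would give 7.47%. Above 10000 CPM the median CV was 23.1%, against 0.572% from counting. The highest library exceeded the lowest by 2-fold or more for 160 of the 391 names, or 40.9%. The biological coefficient of variation estimated by edgeR over all 3 libraries was 37.6% for miRNAs and 52.5% for small RNA genes. Without vehicle 7 it was 28.8% and 37.6%. For miRNAs it was 34.6% without vehicle 9 and 46.0% without vehicle 11, so it was lowest without vehicle 7. The median CV of miRNAs fell to 20.5% without vehicle 7, but a median CV over fewer libraries tends to be lower.

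The steadiest miRNAs with a mean of at least 100 CPM were miR-152-3p (617, 586 and 617 CPM in vehicle 7, 9 and 11) and miR-411-5p (1264, 1215 and 1293 CPM). Their CVs were 2.90% and 3.16%. miR-10b-5p, miR-15a-5p and miR-99a-5p followed, with 3.77%, 3.95% and 6.05%. The most variable were all highest in vehicle 7 and lowest in vehicle 9. miR-29b-3p, with a CV of 104%, was the first. miR-186-5p had 1243, 197 and 309 CPM, and miR-190a-5p had 697, 89.1 and 214 CPM. miR-497-3p had 535, 53.4 and 244 CPM, although miR-497-5p from the same hairpin had 2134, 2268 and 2622 CPM. miR-20a-5p, with 14935, 2901 and 4620 CPM, was the last of the 5. The only miRNA with a mean of at least 10 CPM and no count in some library was miR-105-5p, an X-linked miRNA, with 0, 41 and 4 counts in vehicle 7, 9 and 11.

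**Figure D5:**
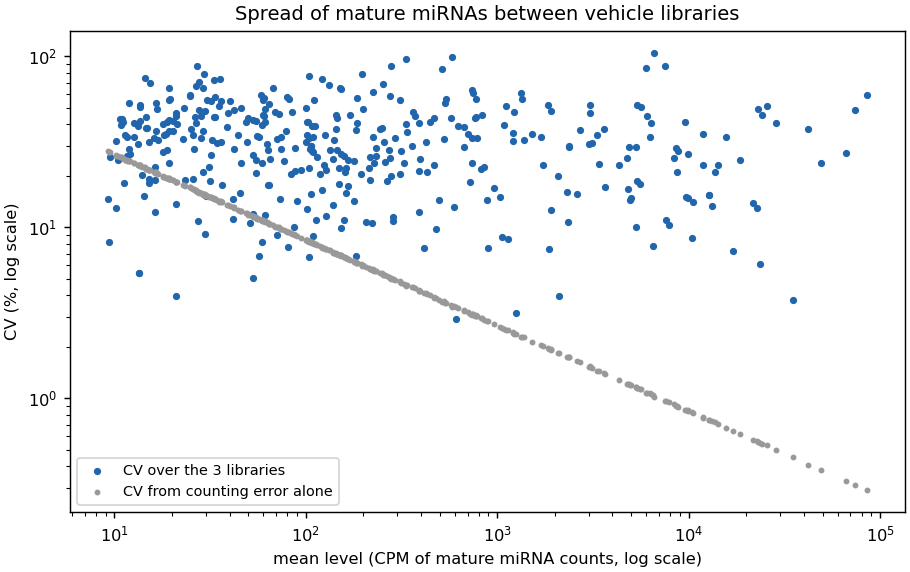
Coefficient of variation of the CPM over the 3 vehicle libraries against the mean level, both on log axes, for 391 miRNA names with at least 10 counts in every library. Blue points are the measured CV and grey points the CV that counting error alone gives; above 10000 CPM the median is 23.1% measured and 0.572% from counting.

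The libraries were ordered in a recurring way. Of 224 miRNAs with a mean of at least 100 CPM, 60 differed by 2-fold or more between vehicle 7 and vehicle 9, 36 between vehicle 7 and vehicle 11, and 21 between vehicle 9 and vehicle 11. Pearson's r of the log2 CPM across 391 miRNAs was 0.949, 0.972 and 0.978 for those pairs, as a description over miRNAs, which are not independent replicates. Vehicle 11 held the middle value for 198 of the 391 miRNAs, or 50.6%, and for 167 of 211 snoRNA genes, or 79.1%. Under TMM scaling these were 200 of 391 and 134 of 211. The animal with the largest differences, vehicle 7, was also the oldest, and the part of age in them was not tested. In the miRNA table TMM moved vehicle 9 by -0.17 and vehicle 11 by -0.19 (log2) against vehicle 7, and miR-10b-5p was then highest in vehicle 7. For the other 19 of the 20 most abundant names the library with the highest level was the same.

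snoRNA genes varied more than miRNA genes in the same libraries. In the small RNA table the median CV was 55.5% over 211 snoRNA genes and 31.5% over 347 miRNA genes with at least 10 counts in every library. A ratio of at least 2 between the highest and the lowest library was reached by 76.8% of those snoRNA genes and 42.1% of those miRNA genes. These values are of CPM without scaling, so they include any shift that a class shares. Of the 211 snoRNA genes 179 were lowest in vehicle 7, against 162 of the 347 miRNA genes. With TMM these were 142 and 71. A shared shift was not separated from the spread of single genes. SNORD26 and SNORD30, at opposite ends of the spread, lay close together, whereas the other genes at its ends lay on other chromosomes. On chromosome 14 of rheMac8, SNORD26 (11445859 to 11445932) was even, at 130, 131 and 141 CPM. SNORD30 (11447494 to 11447563) had 27.6, 422 and 147 CPM, and SNORD31 (11447829 to 11447897) varied as given above. SNORD19B had 28.0, 353 and 76.8 CPM and SNORD42 had 48.8, 781 and 322 CPM. Of miRNA genes, mml-mir-181c was the steadiest, at 584, 572 and 570 CPM.

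The tables ranked the same hairpins alike, and for most of them the counts were close. For 177 hairpins whose arms could be summed and set beside a gene, Spearman's rho across hairpins was 0.970 in vehicle 7, 0.972 in vehicle 9 and 0.969 in vehicle 11, as a description, since both tables come from the same reads. The median ratio of the gene's count to the sum of its arms was 1.03, 1.02 and 1.02. The gene's count was within 10% of the sum for 123, 121 and 123 of the 177. It exceeded the sum by over 2-fold for 10, 6 and 8 hairpins and fell below it by over 2-fold for 6 in each library. mml-let-7c, for example, had 102018 counts in vehicle 7 against 12417 on the let-7c arms. By its counts that gene is 1 of 4 near-identical copies with the let-7a genes. Of these, mml-let-7a-3 had 103887 counts in vehicle 7.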

How the data were processed

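The authors deposited raw counts per mature miRNA from miRDeep2 on rheMac2, and raw counts per small RNA gene from HTSeq on rheMac8, per the labels. Trimming and alignment tools named in the submitters' processing notes are cutadapt 1.9.1 and Bowtie 1.1.2, and HTSeq was version 0.6.1p1. How multiply mapping reads were treated, the strand setting and the miRDeep2 version are not given in the sources used here. Without strand, antisense and overlapping genes cannot be told apart. Titles and design name Ion Torrent, but the labels' protocols describe a stranded total RNA kit and Illumina steps, so the platform is uncertain. The authors also deposited tests of gonadotropin against vehicle with log2 fold changes and p-values, and CPM of the rows kept. Of these tables only the rheMac2 positions were used.

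Here each count was divided by the library's total over the whole table, without scaling factors (TMM was the alternative). Shares, means, SDs and CVs were computed over the 3 vehicle libraries with Python 3.11.15, pandas 2.3.3, numpy 2.4.6 and scipy 1.17.1. The biological coefficient of variation came from edgeR 4.0.16 in R 4.3.3 with an intercept only. Arm shares needed 30 counts over both arms in every library, spread needed 10 counts in every library, and copies were called near-identical within 5%, with at least 30 counts in all. Scripts were tested on simulated data. The labels name separate animals, so SDs hold animal and technical differences together.

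The text names, for mature miRNAs, the 20 highest, leading members of each list, the 5 most and 5 least variable with a mean of at least 100 CPM, and any at 0 in some library with a mean of at least 10 CPM. For hairpins it names those with most counts in each arm class and all whose leading arm differed. For small RNA genes it names leading genes of each class and the most and least variable. Other genes were chosen after their values were seen: miR-497-5p, let-7i-5p, miR-98, miR-891a, miR-660-5p, miR-514a and miR-514b arms, miR-155, mml-let-7c, cluster neighbours and the X-linked unnamed genes. The lists and members were chosen with earlier results of these data known. Of 554 genes without a name in the small RNA table, 60 were named from the table of gene names. Grouping by seed was not done, since mature sequences were not used here.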

Additional observations from a re-analysis of the deposited data

How the results depend on the processing

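Leaving out vehicle 7 changed the arm and CV values most, and leaving out vehicle 9 changed the misc_RNA share from 0.0890% to 0.0400%. Without 1 library at a time, the number of hairpins whose leading arm differed ran from 4 to 9. The median CV of miRNAs ran from 20.5 to 31.0%, and that of small RNA genes from 24.3 to 42.9%, in each case lowest without vehicle 7. Counts of differing hairpins and median CVs tend to be lower over fewer libraries. With no minimum count, the median CV of small RNA genes was 96.7% against 39.1%; that setting adds genes with few counts. Counting near-identical copies 1 time, chosen after the data were seen, gave 91.6% for miRNA, 1.57% for mitochondrial tRNA, 0.152% for rRNA, 0.120% for mitochondrial rRNA and 0.0925% for scaRNA. The total it divides by is smaller, by 1.52 to 1.54 times. The other 110 values under other settings and 231 without 1 library stayed within 1 SD of the reported value, or within 1.5 times for counts and CVs. For a mean of 3 libraries, leaving 1 out always stays within 1 SD, so this says little about stability. No paired analysis was possible because only 1 group is described. Grouping by seed was not run. Names under 10 counts are limited by depth.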
